A study of Mus musculus with 4 samples.

Results

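The genes of DNA replication and mitosis were examined in bone marrow cells of mice after lipopolysaccharide (LPS), a bacterial cell wall component that immune cells sense through Toll-like receptor 4. They form a set of 55 genes listed by function, 27 for DNA replication and 28 for mitosis. They were chosen with earlier results of these data known. The arrays named 54 of them among 19938 genes in all, 27 in each group. Ccnb1, which encodes cyclin B1, was not named by the probe annotation and was not analysed here.

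The LPS group held replicates 1 and 2, from C57BL/6N mice given 50 µg LPS intraperitoneally, an equal mixture from Escherichia coli K12 and Salmonella minnesota. The reference was a PBS group, replicates 1 and 3, from mice of the same strain given phosphate-buffered saline. Marrow cells of both groups were taken 8 h after a single injection, and total RNA of each sample went on 1 Affymetrix GeneChip Mouse Gene ST array. The labels give no age, and they do not say whether a sample came from 1 mouse, so the spread between samples may be partly technical. Values are log2 signals normalised with RMA, on which a difference of 1 is a doubling, and the array medians lay between 8.01 and 8.03. Defining marrow markers lay far above these medians, such as the granule gene Lcn2 (13.77 and 13.76 in the LPS replicates, 13.74 and 13.77 in the PBS replicates) and the erythroid gene Car2 (13.04 and 13.06 in the LPS replicates, 13.17 and 13.11 in the PBS replicates). With 2 arrays against 2, an exact permutation test cannot give a two-sided p below 0.333.

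Cells copy their DNA once per division. In G1 the licensing factors Cdc6 and Cdt1 load the ring of Mcm2 to Mcm7 on origins, and in S phase Cdc45 and the GINS proteins turn it into an active helicase. Many of these genes are switched on by E2F transcription factors late in G1. Mitosis genes peak later, in G2 and M, and many carry a promoter element called the cell cycle genes homology region (CHR), which the DREAM and MuvB complexes bind. In marrow, most dividing cells are erythroblasts, neutrophil precursors and early B cells. At a single time point, RNA from a whole marrow cannot separate fewer dividing cells from less of the RNA per cell.

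The promoters of the 2 groups differed in the elements they most often held. RefSeq windows of 300 bases (250 before and 50 after an annotated transcript start, build GRCm38.p6) were found for 45 of the 55 listed genes, 51 windows in all. No window was at hand for Aurkb, Ccna2, Ccne2, Dlgap5, Foxm1, Gins1, Gins2, Kif20a, Mcm4 and Tpx2. The E2F core was searched on both strands as TTCCCGC, as TTCGCGC, as TTGGCGC and as TTGCCGC. It stood in 18 of 27 replication windows (66.7%). It also stood in 7 of 24 mitosis windows (29.2%) and in 9.57% of all 32851 windows. The CHR letters TTTGAA showed the opposite split, with 4 replication windows (14.8%), 18 mitosis windows (75%) and 17.9% of all windows. The box CCAAT, bound by the factor NF-Y, stood in 59.3% of replication windows, 83.3% of mitosis windows and 37.4% of all windows. Base composition differed as well, the median GC content being 57.7% in replication windows, 61.0% in mitosis windows and 52.7% in all windows. A match is a description of the letters and not a bound site. The windows below belong to the members of each group with the lowest LPS minus PBS difference among those with the group's own element. They show how the elements lie in E2f8 and Lig1 (replication) and in Kif23 and Kif11 (mitosis). They run 5′ to 3′ along the gene, and capitals mark each match to the E2F core, the CHR or the CCAAT box on either strand.
E2f8: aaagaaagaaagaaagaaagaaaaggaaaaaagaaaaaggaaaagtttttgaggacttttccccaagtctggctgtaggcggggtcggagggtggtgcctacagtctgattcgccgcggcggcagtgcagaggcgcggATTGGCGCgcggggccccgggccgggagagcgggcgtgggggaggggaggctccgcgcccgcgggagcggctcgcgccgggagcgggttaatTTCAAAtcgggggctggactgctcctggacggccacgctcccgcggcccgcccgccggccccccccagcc
Lig1: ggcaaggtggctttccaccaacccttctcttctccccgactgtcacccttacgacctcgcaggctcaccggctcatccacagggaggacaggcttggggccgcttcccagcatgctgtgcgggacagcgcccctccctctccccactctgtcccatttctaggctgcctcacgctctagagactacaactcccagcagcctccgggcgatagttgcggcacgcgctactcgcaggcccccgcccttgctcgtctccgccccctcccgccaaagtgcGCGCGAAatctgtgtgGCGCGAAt
Kif23: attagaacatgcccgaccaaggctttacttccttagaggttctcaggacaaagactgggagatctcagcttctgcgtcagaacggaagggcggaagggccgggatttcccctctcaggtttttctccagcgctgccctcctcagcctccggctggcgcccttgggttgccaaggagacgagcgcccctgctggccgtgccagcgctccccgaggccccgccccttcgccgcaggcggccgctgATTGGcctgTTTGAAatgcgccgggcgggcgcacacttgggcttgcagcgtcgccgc
Kif11: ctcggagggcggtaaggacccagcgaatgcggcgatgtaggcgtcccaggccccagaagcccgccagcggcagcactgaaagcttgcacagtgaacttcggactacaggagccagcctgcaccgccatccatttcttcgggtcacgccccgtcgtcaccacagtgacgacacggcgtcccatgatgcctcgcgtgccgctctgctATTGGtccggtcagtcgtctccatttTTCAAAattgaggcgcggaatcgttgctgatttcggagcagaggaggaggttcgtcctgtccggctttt

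The E2f8 window lies at chr7:48881547-48881846 on the minus strand, and its E2F core TTGGCGC overlaps a reversed CCAAT box in the joined run ATTGGCGC. It also holds a reversed CHR between 20 and 15 bases before the start. The Lig1 window, at chr7:13278576-13278875 on the plus strand, is 1 of 3 for that gene and holds 2 copies of the reversed core GCGCGAA, both after the start. In Kif23, at chr9:61946750-61947049 on the minus strand, a reversed CCAAT box is followed within a few bases by TTTGAA, which spans bases 3 to 8 after the start. In Kif11, at chr19:37376132-37376431 on the plus strand, a reversed CCAAT box comes before a reversed CHR, both ahead of the start. Over all members, an E2F core overlapped 1 of the other elements in 3 replication windows and 3 mitosis windows.

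**Figure D1:**
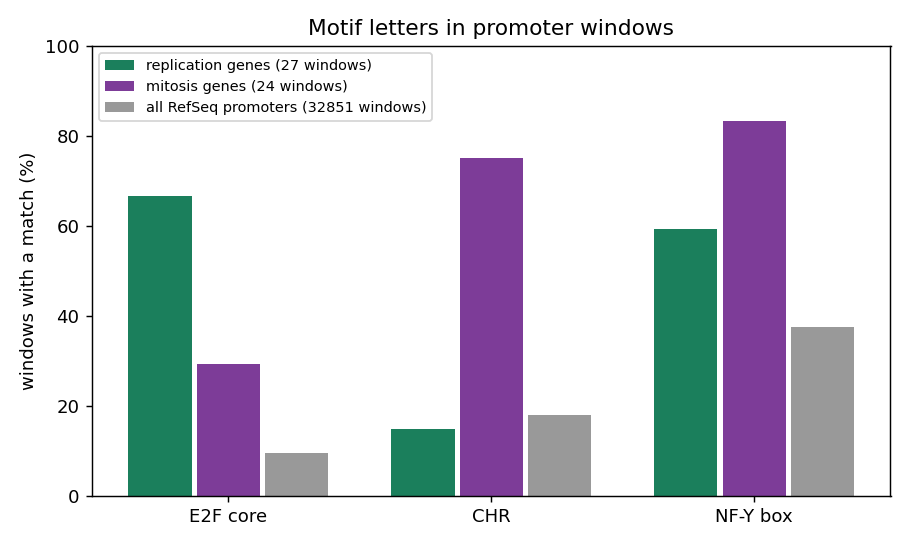
Percent of RefSeq promoter windows with a match to the E2F core, the CHR or the NF-Y box (CCAAT) on either strand, for 27 replication windows, 24 mitosis windows and all 32851 windows. The E2F core is the more frequent in replication windows (66.7% against 29.2% in mitosis windows) and the CHR in mitosis windows (75% against 14.8% in replication windows).

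After LPS, genes of both groups lay slightly lower on the arrays, and none of the 54 passed the test. The LPS minus PBS log2 difference was negative for 51 members, against 52.5% of all genes. It had a median of -0.13 over the replication genes, -0.20 over the mitosis genes and -0.01 over all genes. The lowest single value was that of Kif23, at -0.41, a level 0.751 times that of PBS on the linear scale. By limma with Benjamini-Hochberg adjustment over all genes, 0 members were higher and 0 lower at an adjusted p under 0.05. Of all genes tested, 2.39% were called higher and 1.27% lower. At an unadjusted p under 0.05 there were 11 members, 9 for mitosis and 2 for replication, all with negative differences, against 15.8% of all genes in either direction.

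Separation of the arrays was more frequent than over all genes. Both LPS arrays lay below both PBS arrays in 15 of 27 replication genes (55.6%) and 22 of 27 mitosis genes (81.5%), against 24.5% of all genes. Both lay above in 0 members, against 20.4% of all genes. The members are well expressed, so a second background was added after the data were seen, namely the 6476 genes whose mean signal lay within the range of the members' means. In that range the median difference was -0.05, 60.9% of differences were negative, and 34.5% of genes had both LPS arrays below both PBS arrays. The members' counts of negative differences and of separated arrays were above both backgrounds. Their count at an unadjusted p under 0.05 was not, since 1516 of these 6476 genes reached it, a larger share than the members' 11 of 54. The 9 of 27 mitosis genes were above this share and that over all genes, and the 2 of 27 replication genes were below both. Both background shares count either direction, whereas all 11 members were negative. The 95% intervals of 43 members held 0, and the lowest bound of any was -0.62.

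**Figure D2:**
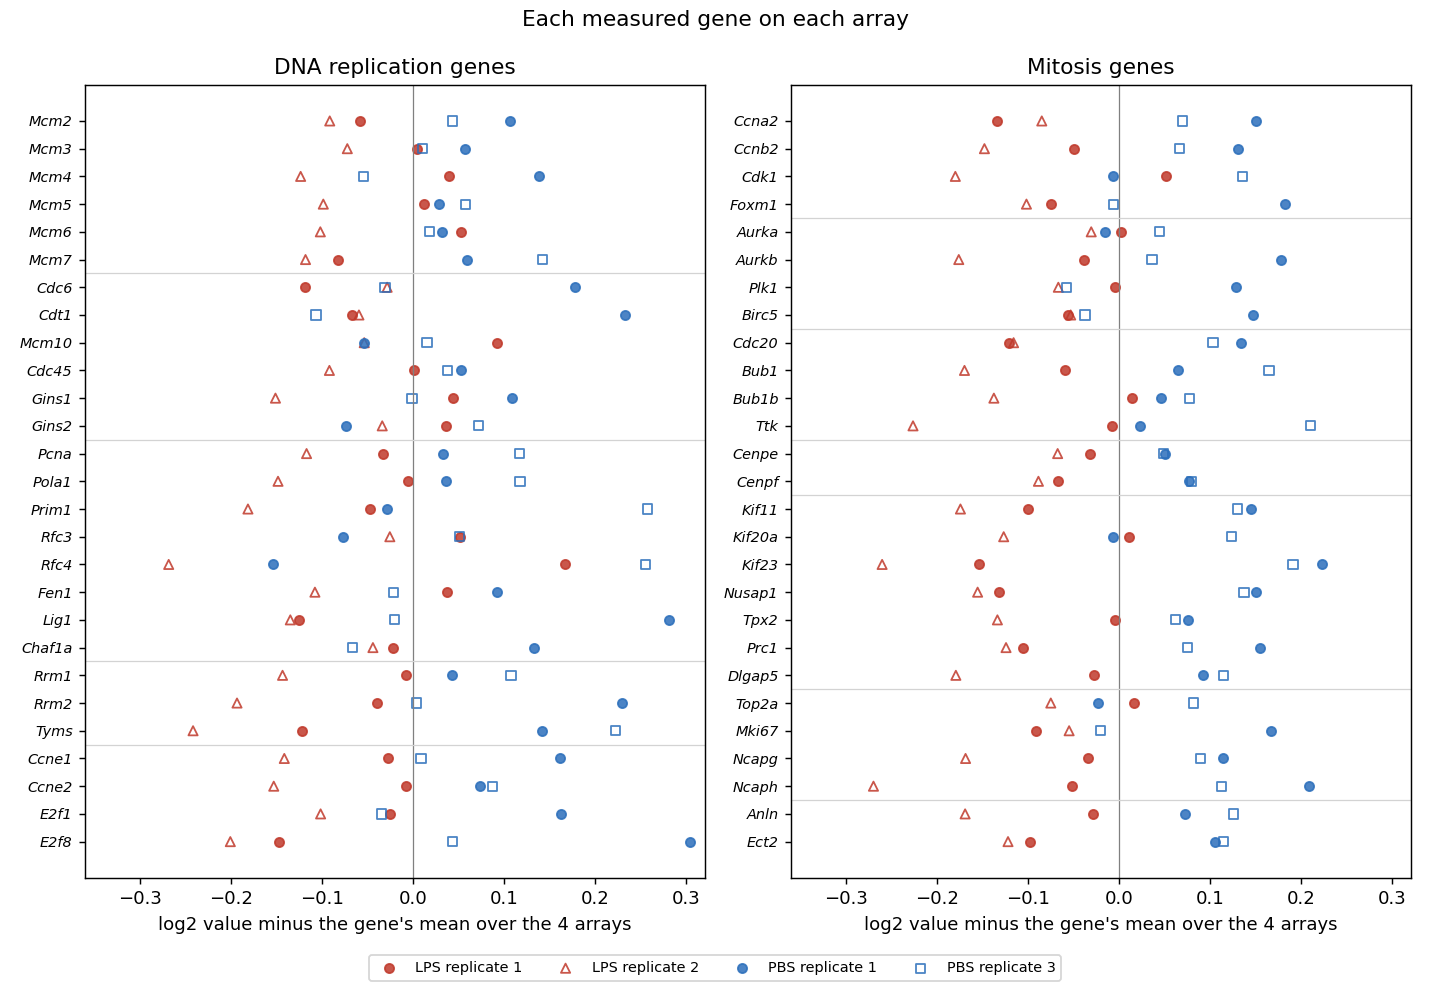
Log2 value of each of the 54 measured genes on each array minus the gene's mean over the 4 arrays, with grey lines between functional classes. LPS arrays (red) lie mostly left of PBS arrays (blue), apart from each other in 22 of 27 mitosis genes and 15 of 27 replication genes.

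The arrays within a group differed too. In LPS replicate 2 the members were lower than in LPS replicate 1 for 48 of 54 genes, with a median difference of -0.10. LPS replicate 2 was also the lower for 10019 of all 19938 genes. In the members' signal range it was the lower for 4236 of 6476 genes, with a median difference of -0.05. Between PBS replicates 3 and 1 the median difference was -0.01, and replicate 3 was the lower for 31 genes. The lowest of the 4 values fell in LPS replicate 2 for 44 members, against 5168 of all genes and 2374 of those in the members' signal range. Each value was also set against the gene's own 4-array mean. By the median of these deviations, replication genes stood at -0.01 and -0.12 in LPS replicates 1 and 2 and at 0.07 and 0.04 in PBS replicates 1 and 3. Mitosis genes stood at -0.05 and -0.13 in the LPS replicates and at 0.11 and 0.08 in the PBS replicates. Both groups of genes were thus lower on each LPS array than on each PBS array, and LPS replicate 1 was close to the PBS arrays for replication. Leaving out LPS replicate 2 gave a median difference of -0.08 for the replication genes and -0.15 for the mitosis genes, and 48 members had negative differences.

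By these deviations, and not by signal, the mitosis genes were the lower group on both LPS arrays. The replication median minus the mitosis median was 0.04 and 0.02 in LPS replicates 1 and 2, against -0.04 in each PBS replicate. A gene's deviations cancel out over the arrays, so the LPS and PBS values are not independent of each other. The medians of the LPS minus PBS differences were 0.07 apart, and 0.0477 to 0.088 apart when any 1 array was left out. This gap was described over 2 arrays a group and was not tested.

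The MCM helicase genes, whose products form the ring that unwinds DNA, had differences between -0.20 and -0.05, all 6 negative. Mcm7 had 11.60 and 11.57 in LPS replicates 1 and 2 and 11.74 and 11.83 in PBS replicates 1 and 3. Its LPS arrays lay below both PBS arrays, and so did those of Mcm2. Mcm3 and Mcm5 were apart only narrowly. In LPS replicate 1 they had 10.11 and 10.81, against 10.12 in PBS replicate 3 for Mcm3 and 10.83 in PBS replicate 1 for Mcm5. The Mcm7 difference of -0.20 (SE 0.0887, limma adjusted p = 0.33) did not pass. Mcm4 (-0.08) and Mcm6 (-0.05) had arrays that overlapped between groups.

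Among the 6 genes of origin licensing and firing, 4 had negative differences and only Cdc45 had groups apart. Cdc45, the helicase cofactor, had 9.81 and 9.72 in the LPS replicates and 9.87 and 9.85 in the PBS replicates, a difference of -0.09 that was -0.04 without LPS replicate 2 and -0.14 without LPS replicate 1. Cdc6, the loader of the MCM ring, had 9.21 and 9.30 in the LPS replicates and 9.51 and 9.30 in the PBS replicates. Only PBS replicate 1 stood above the other arrays, and the difference of -0.15 was -0.04 without it and -0.25 without PBS replicate 3. Cdt1 showed the same picture, with PBS replicate 1 high at 9.93 and the other 3 arrays between 9.59 and 9.63. Mcm10 (0.04) and Gins2 (0.00) were 2 of the 3 members with values above 0.

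Fork proteins were varied. Pcna, the sliding clamp that tethers DNA polymerases, had 12.72 and 12.64 in the LPS replicates and 12.79 and 12.87 in the PBS replicates. The groups were apart by a small margin, and the difference was -0.15 (95% interval -0.36 to 0.06). A second probe set annotated to Pcna gave -0.15 as well. Lig1, the ligase that joins Okazaki fragments, had 10.20 and 10.20 in the LPS replicates and 10.61 and 10.31 in the PBS replicates. Its LPS arrays agreed closely, whereas the PBS arrays differed by more than the distance between the LPS arrays and PBS replicate 3. The Lig1 difference was -0.26 (SE 0.115, limma adjusted p = 0.33), and it was -0.11 without PBS replicate 1 and -0.41 without PBS replicate 3. Pola1 (-0.15) and Prim1 (-0.23), of the polymerase that lays down primers, had groups apart. For Prim1 this was narrow, with 9.92 in LPS replicate 1 and 9.94 in PBS replicate 1. Fen1 (-0.07), Chaf1a (-0.07) and Rfc3 (0.03) overlapped. Rfc4, a clamp loader subunit, varied most within groups, with 11.31 and 10.88 in the LPS replicates and 10.99 and 11.40 in the PBS replicates, so that its difference of -0.10 was smaller than either spread.

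Genes of nucleotide supply were the lowest class of the replication genes, with a median of -0.23 and all 3 apart between groups. The share apart with LPS lower was 24.5% over all genes and 34.5% in the members' signal range. Tyms encodes thymidylate synthase, which makes the thymidine nucleotide for DNA. It had 10.35 and 10.23 in the LPS replicates and 10.61 and 10.69 in the PBS replicates, or 10.29 ± 0.08 on average in the LPS group and 10.65 ± 0.06 in the PBS group (SD, n = 2 each). Both LPS arrays were clearly lower, and the interval of the difference of -0.36 ran from -0.58 to -0.15. After adjustment over all genes it did not pass (limma adjusted p = 0.094). The ribonucleotide reductase subunits Rrm1 and Rrm2 had -0.15 and -0.23. Rrm1 had 12.11 and 11.97 in the LPS replicates and 12.16 and 12.22 in the PBS replicates, with LPS replicate 1 near the PBS arrays, and its difference was -0.08 without LPS replicate 2.

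The regulators of S-phase entry were all negative, from -0.35 to -0.13. E2f8, a repressor among the E2F factors, had 10.72 and 10.67 in the LPS replicates and 11.18 and 10.91 in the PBS replicates. The groups were apart, and PBS replicate 1 was the highest array. Its difference was -0.35 (SE 0.11, limma adjusted p = 0.166). Leaving out PBS replicate 3 made it -0.48 and past the threshold (limma adjusted p = 0.0364), and leaving out PBS replicate 1 made it -0.22. The cyclin E genes Ccne1 (-0.17) and Ccne2 (-0.16) had groups apart, and the activator E2f1 (-0.13) did not.

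**Figure D3:**
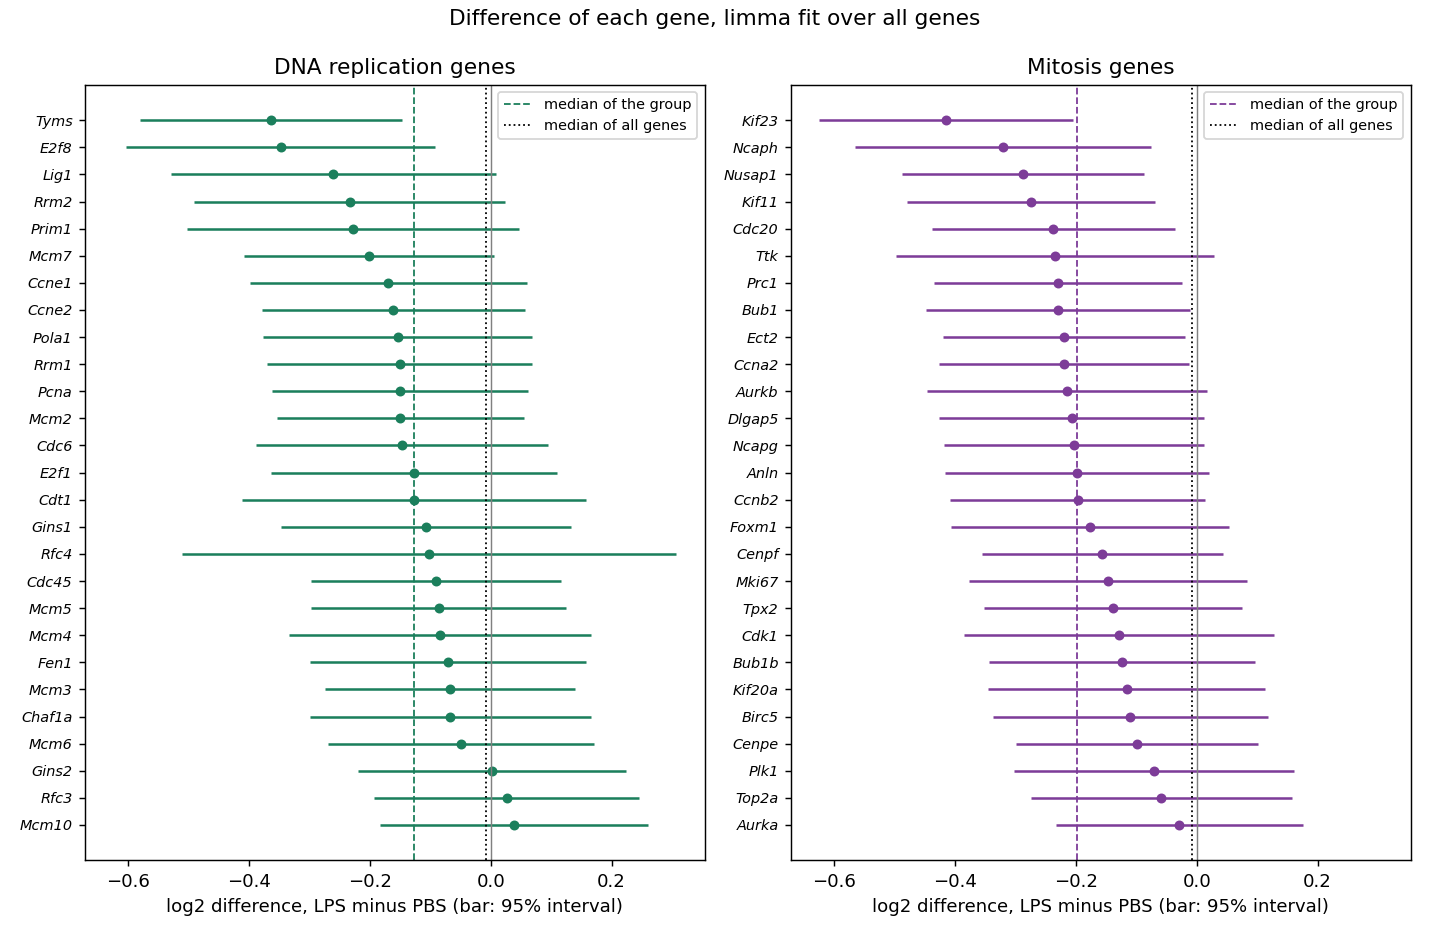
LPS minus PBS log2 difference of each gene with its 95% interval from the limma fit over all genes, sorted within replication (left) and mitosis (right), with the group median (dashed) and the median of all genes (dotted). The points run from -0.41 to 0.04, and 43 of 54 intervals cross 0.

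Mitotic cyclins and their kinase differed among themselves. Ccna2, cyclin A2, had 12.12 and 12.17 in the LPS replicates and 12.40 and 12.32 in the PBS replicates, clearly apart, with a difference of -0.22 (95% interval -0.43 to -0.01). Its adjusted p of 0.285 by limma did not pass. Ccnb2 (-0.20) and Foxm1 (-0.18), the forkhead activator of G2 genes, were apart as well. Cdk1, the kinase that cyclins A and B activate, had 12.15 and 11.91 in the LPS replicates and 12.09 and 12.23 in the PBS replicates. LPS replicate 1 lay between the PBS arrays. The difference of -0.13 was -0.01 without LPS replicate 2 and -0.24 without LPS replicate 1.

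The class of mitotic kinases had a median of -0.09, the smallest of the mitosis classes. Aurkb, which encodes the catalytic subunit of the chromosomal passenger complex, had 11.37 and 11.24 in the LPS replicates and 11.59 and 11.45 in the PBS replicates, a difference of -0.21. Its partner Birc5 (survivin) had -0.11 with groups barely apart. Aurka (-0.03) and Plk1 (-0.07), kinases of centrosome maturation and spindle assembly, had overlapping arrays. Of the 4 genes in this class, 2 were thus apart between groups, against 24.5% of all genes and 34.5% in the members' signal range.

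All 4 genes of the spindle checkpoint and anaphase were apart between groups, with a median of -0.23. Of all genes 24.5% were apart with LPS lower, and of those in the members' signal range 34.5%. Cdc20, the activator of the anaphase-promoting complex, had 9.70 and 9.70 in the LPS replicates and 9.95 and 9.92 in the PBS replicates. Its replicates lay close together in both groups, and the difference was -0.24 (SE 0.086, limma adjusted p = 0.229). Bub1, a checkpoint kinase at kinetochores, had 10.40 and 10.29 in the LPS replicates and 10.52 and 10.62 in the PBS replicates. Ttk (-0.23) and Bub1b (-0.12) were lower on both LPS arrays too. The kinetochore genes Cenpe (-0.10) and Cenpf (-0.16) had small differences with close replicates. For Cenpf the values were 9.94 and 9.92 in the LPS replicates and 10.08 and 10.09 in the PBS replicates, and for Cenpe 10.22 and 10.18 against 10.30 and 10.30 in the PBS replicates.

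Spindle motors and microtubule proteins held the lowest value of the whole set. Kif23, the kinesin of the central spindle that is needed for cytokinesis, had 10.57 and 10.46 in the LPS replicates and 10.95 and 10.92 in the PBS replicates. It averaged 10.52 ± 0.08 in the LPS group and 10.93 ± 0.02 in the PBS group (SD, n = 2 each), so the groups were far apart relative to their spread. The difference of -0.41 (SE 0.0903, 95% interval -0.62 to -0.20) had a limma adjusted p of 0.0541 and just missed the threshold. It passed with a filter on low values (adjusted p = 0.0451) and with an intensity trend and robust eBayes (adjusted p = 0.0419), and over all alternatives the adjusted p ran from 0.0419 to 0.38.

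All members of this class shared the direction, 6 of 7, Kif23 included, being apart between groups. Beside this, 24.5% of all genes and 34.5% in the members' signal range were apart with LPS lower. Kif11, the kinesin that separates spindle poles, had 11.38 and 11.31 in the LPS replicates and 11.63 and 11.61 in the PBS replicates, a difference of -0.27 (limma adjusted p = 0.174). Nusap1, a microtubule-bundling protein, had -0.29, Prc1, a partner of Kif23 at the central spindle, -0.23, Dlgap5 -0.21 and Tpx2 -0.14. Kif20a (-0.12) had arrays that overlapped.

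Chromosome structure genes and the proliferation marker ran from -0.32 to -0.06, all 4 negative. Ncaph, a condensin subunit, had 10.52 and 10.30 in the LPS replicates and 10.78 and 10.69 in the PBS replicates, a difference of -0.32 (limma adjusted p = 0.183). Its LPS replicates differed by more than its PBS replicates did, and without LPS replicate 2 the difference was -0.21. Ncapg, another condensin subunit, had -0.20 with groups apart. Top2a, the topoisomerase that untangles sister chromatids, had 11.98 and 11.89 in the LPS replicates and 11.94 and 12.05 in the PBS replicates. The Top2a groups overlapped, with a difference of -0.06 that ran from -0.11 to -0.01 with an array left out. A second, dim probe set of Top2a gave -0.27, with 6.94 and 5.96 in the LPS replicates and 6.61 and 6.84 in the PBS replicates, also overlapping. Mki67, the proliferation marker Ki-67, had 12.63 and 12.67 in the LPS replicates and 12.89 and 12.70 in the PBS replicates. Here the groups were apart only narrowly, PBS replicate 3 lying close to the LPS arrays, and the difference was -0.15 (95% interval -0.38 to 0.08). It was -0.05 without PBS replicate 1 and -0.24 without PBS replicate 3.

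Both cytokinesis genes were apart with LPS lower, as were 24.5% of all genes and 34.5% in the members' signal range. Ect2, the exchange factor that activates RhoA at the cleavage furrow, had 10.72 and 10.69 in the LPS replicates and 10.92 and 10.93 in the PBS replicates, a difference of -0.22 (SE 0.0859, limma adjusted p = 0.265). Anln, the ring scaffold anillin, had -0.20.

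Further genes of the same processes were listed beside the members. Of 39 other replication genes measured, 0 passed in either direction, 33 were negative and the median was -0.15. Asf1b, a histone chaperone, had 11.32 and 11.32 in the LPS replicates and 11.65 and 11.74 in the PBS replicates, a difference of -0.38 (limma adjusted p = 0.0706). The maintenance methyltransferase Dnmt1 had -0.19, and -0.11 without PBS replicate 1. Of 39 other mitosis genes, 0 fell and 36 were negative, with a median of -0.18. Both LPS arrays lay below both PBS arrays in 26 genes of each list (66.7%), against 24.5% of all genes and 34.5% of those in the members' signal range. The split among the members, 55.6% for replication and 81.5% for mitosis, thus did not recur in these lists, and their medians were close. They lay above in 1 other replication gene and 2 other mitosis genes.

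Pttg1 was the exception among the other mitosis genes and the 1 that rose. It encodes securin, the inhibitor of separase that Cdc20 marks for destruction at anaphase. Pttg1 had 11.27 and 11.32 in the LPS replicates and 10.48 and 10.44 in the PBS replicates, far apart. The rise of 0.84 log2 (SE 0.087, 95% interval 0.64 to 1.04) was 1.79-fold, with a limma adjusted p of 0.00175. Its adjusted p was at most 0.0194 under the other moderated fits and 0.255 in the unmoderated linear model, which called 0 of all genes.

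Genes that act before S phase or brake the cycle were listed as well. Of 24 genes for G1 cyclins, CDKs, E2F and pocket proteins, 2 rose and 0 fell, with a median of -0.12. Of all genes, 2.39% were called higher and 1.27% lower. Both G1 genes that rose were D cyclins, partners of Cdk4 and Cdk6. Ccnd1 had 10.13 and 9.91 in the LPS replicates and 9.22 and 9.48 in the PBS replicates, a rise of 0.67 log2 (limma adjusted p = 0.0271). Ccnd2 had 11.54 and 11.54 in the LPS replicates and 11.09 and 11.11 in the PBS replicates, a rise of 0.44 (limma adjusted p = 0.0347). Neither passed with every probe set in the fit (adjusted p = 0.133 for Ccnd1 and 0.121 for Ccnd2) or without LPS replicate 1 (0.0726 and 0.133). Ccnd2 also did not pass without PBS replicate 1 (0.0655) or LPS replicate 2 (0.142).

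The list of CDK inhibitors and p53 targets, which also held Gadd45 genes, was the only 1 of these 5 with a positive median, 0.14. Of its 20 genes 3 rose and 0 fell, against 2.39% and 1.27% of all genes. The 3 were 2 Gadd45 genes and Mdm2. Gadd45g had 9.22 and 9.10 in the LPS replicates and 8.29 and 8.29 in the PBS replicates, a rise of 0.87 log2 (limma adjusted p = 0.00182). Gadd45b had 9.80 and 9.98 in the LPS replicates and 9.14 and 8.94 in the PBS replicates, a rise of 0.85 (limma adjusted p = 0.00526). Both belong to the growth arrest and DNA damage family of stress proteins. Mdm2, the ubiquitin ligase of p53, rose by 0.42 (limma adjusted p = 0.0457). The Mdm2 call was lost with every probe set in the fit (adjusted p = 0.145) and without PBS replicate 3 (0.0854), LPS replicate 1 (0.177) or LPS replicate 2 (0.16). Of 17 genes of the DNA damage checkpoint and repair, 0 passed and 14 were negative, with a median of -0.15. In that list Topbp1 had -0.16 and Cdc25b -0.26, which was -0.09 without PBS replicate 1 and -0.44 without PBS replicate 3.

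Markers of the marrow cells that divide also had lower sums on the LPS arrays, in patterns of their own. The summed linear signal of 16 erythroid markers was 54045 and 56842 in LPS replicates 1 and 2 and 66493 and 60267 in PBS replicates 1 and 3. For 12 granule genes of neutrophil precursors the sums were 73343 and 67932 in the LPS replicates and 77484 and 76871 in the PBS replicates. For 12 early B-cell markers they were 20342 and 26360 in the LPS replicates and 26437 and 27467 in the PBS replicates, so LPS replicate 2 lay close to PBS replicate 1. Differences were negative for 15, 8 and 12 genes of these lists, with medians of -0.24, -0.17 and -0.25, and Dntt in the early B-cell list fell (-0.55, limma adjusted p = 0.0184, and 0.0156 to 0.0946 under the moderated alternatives). Both LPS arrays lay below both PBS arrays in 12 erythroid, 6 granule and 6 early B-cell genes. The share was 24.5% over all genes and 34.5% over those in the members' signal range. No zero level exists on this scale. The granule genes resembled the members in standing lowest in LPS replicate 2 (median deviation -0.19, against 0.01 in LPS replicate 1). Mature neutrophil (-0.20), monocyte and macrophage (-0.13), T-cell (-0.14) and stem and progenitor genes (-0.04) were also lowest there. So were the genes in the members' signal range (-0.04), whereas megakaryocyte genes were lowest in PBS replicate 3 (-0.06). Erythroid, early B-cell and mature B-cell markers were lowest in LPS replicate 1, at -0.15, -0.30 and -0.32, where the members were less low. Of markers of cells that divide less, mature neutrophil genes had a median difference of -0.22 (1 of 8 fell), mature B-cell genes -0.24 (3 of 10 fell) and T-cell genes -0.23 (2 of 11 fell). Of these 6, the calls of Retnlg, Cr2, H2-Ob, Cd8b1 and Icos were each lost under at least 1 moderated alternative, with a highest adjusted p of 0.103 for Retnlg, 0.0741 for Cr2, 0.125 for H2-Ob, 0.181 for Cd8b1 and 0.243 for Icos, while Fcer2a passed in all of them. Monocyte and macrophage genes had -0.09 (1 of 11 rose and 2 fell), megakaryocyte genes 0.01 (0 of 8 passed) and stem and progenitor genes -0.01 (1 of 10 rose). The monocyte gene that rose, Adgre1, also lost its call under a moderated alternative (highest adjusted p 0.124). Over all genes, 2.39% were called higher and 1.27% lower. Both LPS arrays lay below both PBS arrays in 5 of 8 mature neutrophil, 5 of 10 mature B-cell and 8 of 11 T-cell genes. They lay above in 0, 0 and 1 of these. For monocyte and macrophage, megakaryocyte, and stem and progenitor genes, 5, 1 and 4 were lower and 2, 1 and 3 higher in this way. The part of these cell types in the members' differences was not tested.

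**Figure D4:**
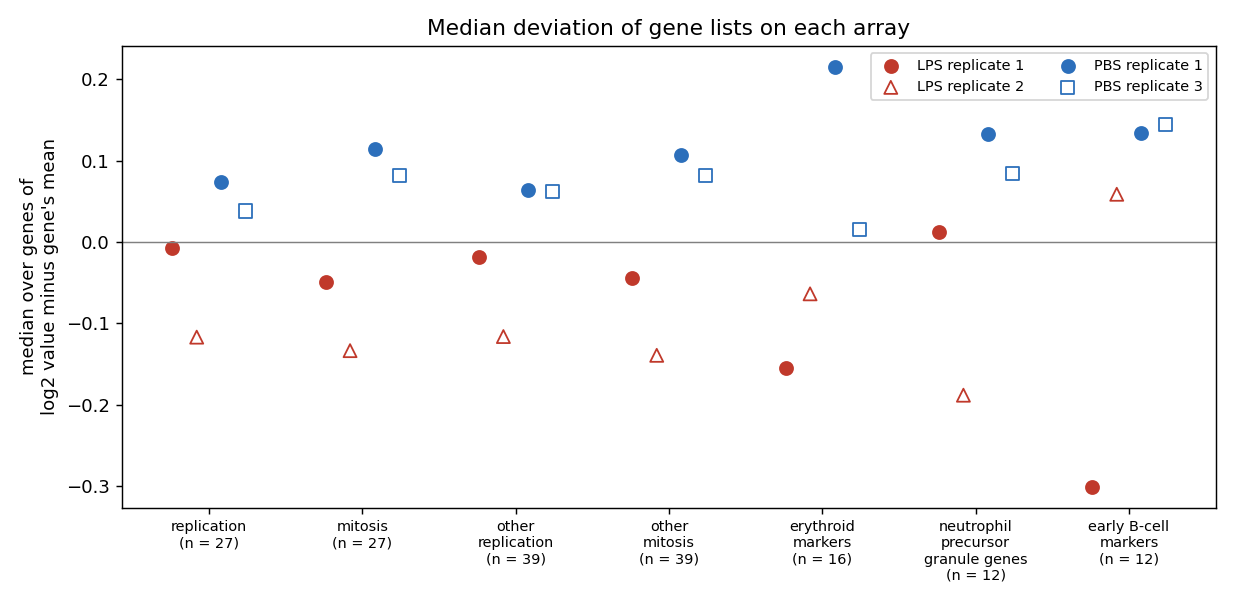
Median over the genes of a list of the log2 value minus the gene's mean, on each of the 4 arrays, for the members, the other replication and mitosis genes, and markers of 3 dividing marrow lineages. Members and other cell cycle genes are lowest in LPS replicate 2 (-0.12 for replication and -0.13 for mitosis), whereas early B-cell markers are lowest in LPS replicate 1 (-0.30).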

How the data were processed

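Total RNA from bone marrow cells was hybridised to 4 arrays, 2 per group. The deposited table holds log2 values for 35556 probe sets, made by the authors with RMA, per the submitters' processing notes. No source used here names the RMA version. That the scale is log2 was judged by the range, 2.76 to 14.52. Genes were named from the platform annotation: 21789 probe sets had 1 symbol, 1621 had several and 12146 had none. The brightest probe set stood for each of the 999 genes with several, giving 19938 genes. Dim genes were kept, and the number of arrays limits the precision.

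LPS was compared with PBS by limma's moderated test (version 3.58.1, R 4.3.3), two-sided and without covariates, with 2 residual and 5.59 prior degrees of freedom. P-values were adjusted by Benjamini-Hochberg over the 19938 genes, and the threshold was 0.05. The fit was tested on simulated data with added differences larger in size than that of any member. It therefore does not show that differences of the members' size would be found. The members and lists were chosen with earlier results of these data known, so lists are given as counts and medians without a test. Named members were, per functional class, the brightest and the one with the largest difference, plus Pcna, Mki67, Top2a and Cdk1, 21 in all; other members have their difference only, and Cdt1 and Rfc4 were given in full after their values were seen. From each other list came up to 4 genes past the threshold or, with none, the 2 brightest. Promoter windows are from RefSeq (GRCm38.p6). Alternatives were the mean of probe sets, every probe set in the fit, genes above the lower quartile of mean signal, median centring, other variance models, a stricter threshold and leaving out each array. Figures used Python 3.11.15 and matplotlib 3.10.9.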

Additional observations from a re-analysis of the deposited data

How the results depend on the processing

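Other variance models, filters and thresholds leave a gene's difference as it is, so the sign can change only with centring, another probe set or an array left out. With an array left out, the number of members with a negative difference, 51 of 54 with all arrays, was 54 without LPS replicate 1, 48 without LPS replicate 2 and 49 when either PBS replicate was dropped. The number of members called lower was 1 with a filter on low values and with an intensity trend and robust eBayes (Kif23 in both), and 0 to 1 with an array left out (E2f8, without PBS replicate 3). With an array left out, the mitosis median ran from -0.23 to -0.15, the replication median from -0.17 to -0.08 (the smaller size being without LPS replicate 2 in both), and their gap from 0.0477 (without PBS replicate 3) to 0.088 (without PBS replicate 1). The trend and robust fit called 1 other replication gene lower, Asf1b. Other mitosis genes called lower numbered 0 to 2 with an array left out.

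For G1 genes the number called higher was 0 with every probe set, 0 in the unmoderated linear model, 0 at an adjusted p under 0.01 and 0 to 2 with an array left out. The number called lower was 1 with the filter, 2 with the trend and robust fit and 0 to 2 with an array left out. CDK inhibitors and p53 targets called higher numbered 0 in the unmoderated linear model and 2 to 5 with an array left out. The unmoderated linear model also called 0 other mitosis genes higher. Checkpoint and repair genes called higher numbered 0 to 1 with an array left out. Over all genes, the count of lower calls was 254, against 63 with every probe set, 0 in the unmoderated linear model, 58 at an adjusted p under 0.01 and 127 to 423 with an array left out. The cause of these changes was not tested. A fit without 1 array assumes that the lone sample varies like the other group. No paired analysis was run, because the labels give replicate numbers but describe no pairing of LPS with PBS samples.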
